A study of Sus scrofa with 4 samples.

Results

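This account covers 9 genes that p53 switches on in other cells, CDKN1A among them, in pig (Sus scrofa) aortic valve interstitial cells in culture. They are the rows of the deposited gene table whose symbol is CDKN1A, MDM2, FAS, XPC, SESN1, GADD45A, TP53INP1, CCNG1 or ZMAT3, and all 9 were found among 14804 gene rows. Primary interstitial cells, which resemble fibroblasts and make the matrix of the valve, were grown for 5 days and made into droplet single-cell RNA libraries, 1 library per group. The NO donor group had detaNONOate, which releases nitric oxide, at 150 µM for all 5 days, and the control group had none. A group with 3 days of donor and 2 days without it, and a group with 200 µM S-nitrosoglutathione, were not analysed here. The labels give no pig, passage or number of animals.

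The transcription factor p53 is held at a low level by the ubiquitin ligase MDM2 and accumulates after DNA damage and other stresses. It then binds DNA at paired half-sites and turns on genes that stop the cell cycle, repair DNA, limit oxidants, start cell death or, through MDM2 itself, shut p53 down again. CDKN1A encodes p21, which binds cyclin-dependent kinases and PCNA; loss of kinase activity leaves the DREAM repressor complex on cell cycle genes. These roles are known mainly from human and mouse cells.

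Where the genome sequence near these genes matches the p53 consensus is shown first, because the site is what the genes have in common in other species. Each gene was scanned in the Sscrofa11.1 genome from 5000 bases before to 5000 bases after its RefSeq start for 2 adjoining p53 half-sites, 20 bases, with both 4-base cores intact and at most 2 mismatches among the 12 flanking positions. Of the 9 genes 5 held such a match, against 3.42% of 20573 windows of protein-coding genes. The capitals mark the 2 cores, and each line reads 5′ to 3′ on the strand of the gene.
CDKN1A, chr7:32352251-32352270, plus strand: gaaCATGtcctaaCATGttg
MDM2, chr5:33106505-33106524, plus strand: ggtCAAGttcggaCAAGttc
ZMAT3, chr13:117145996-117146015, minus strand: aaaCAAGtccagaCATGtct
CCNG1, chr16:60356399-60356418, minus strand: taaCAAGttcaggCTAGtcc
GADD45A, chr6:144939360-144939379, minus strand: ggcCTTGtttagaCTTGtgt

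The CDKN1A match began 2525 bases before the annotated start and had 2 mismatches. The matches of MDM2 (788 bases after the start, 1 mismatch), ZMAT3 (1624 bases after it, no mismatch) and CCNG1 (319 bases after it, 1 mismatch) lay in introns. That of GADD45A, with 2 mismatches, began 4710 bases after the start, beyond the end of the gene. A match without any mismatch, as in ZMAT3, occurred in 0.107% of the windows. FAS, XPC, SESN1 and TP53INP1 had no match in their windows, which says only that these letters are not there. The 100 bases around the sites of CDKN1A, the gene with the highest ratio, of MDM2 and of ZMAT3 are given for context.
CDKN1A, chr7:32352211-32352310: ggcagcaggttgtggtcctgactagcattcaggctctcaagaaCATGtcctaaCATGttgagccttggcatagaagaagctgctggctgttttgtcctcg
MDM2, chr5:33106465-33106564: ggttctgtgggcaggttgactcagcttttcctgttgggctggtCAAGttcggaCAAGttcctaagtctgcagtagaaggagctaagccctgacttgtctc
ZMAT3, chr13:117145956-117146055: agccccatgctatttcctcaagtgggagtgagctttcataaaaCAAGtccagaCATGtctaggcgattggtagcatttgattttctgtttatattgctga

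Close to the starts, in the 300 bases from 250 before to 50 after them, a single half-site without mismatch was present in TP53INP1 alone, against 6.001% of 20664 such windows. The letters GGGCGG, on either strand, were present in all 9 windows and in 48.9% of all windows. The 250 bases before the CDKN1A start (chr7:32354526-32354775, plus strand) are printed with both GGGCGG copies in capitals.
CDKN1A upstream: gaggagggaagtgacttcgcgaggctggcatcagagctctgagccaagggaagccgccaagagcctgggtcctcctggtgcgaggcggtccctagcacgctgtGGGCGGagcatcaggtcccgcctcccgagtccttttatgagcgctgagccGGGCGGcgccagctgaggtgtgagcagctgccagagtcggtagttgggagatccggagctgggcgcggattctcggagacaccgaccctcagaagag

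The values are normalized counts in 3 columns per library. They were read as the counts of a gene summed over cells and divided by the authors' size factor. The origin of the columns is not given in the labels or the table, so they were read as parts of 1 library and not as replicates: the differences were not replicated and the treatment could not be tested. The columns held 7064703 to 7151367 counts in NO donor cells and 6486628 to 8067661 in control cells. Ratios are log2 values of NO donor over control with exact 95% intervals that cover counting error only, and a gene is called higher or lower at 0.5 log2 units or more, a rule of size. The median log2 ratio of 13943 measured genes was 0.00 at the authors' scaling. Scaling each library to its total count adds 0.60 to every ratio, so a ratio is best read against that of all genes. VIM and the collagen genes of interstitial cells were present in both libraries. In sums over cells, a change in the number of cells that hold a transcript and a change in its amount per cell cannot be told apart.

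Of the 9 genes 7 were higher in the NO donor library, 1 was lower and 1 lay between, with a median log2 ratio of 1.42. Among all measured genes 29.5% were higher and 32.0% were lower by the same rule. The 9 genes and the gene lists below were chosen with earlier results of these data known. Their counts beside the shares of all measured genes are therefore description and not a test. At 1 log2 unit 6 of the 9 were higher, against 14.5% of measured genes. In 7 genes every NO donor column lay above every control column, which held for 36.7% of measured genes, and in SESN1 every one lay below, which held for 36.3%; only CCNG1 had columns that overlapped. Under total count scaling 8 of the 9 were higher and 1 was lower, against 53.9% and 18.6% of measured genes.

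**Figure D1:**
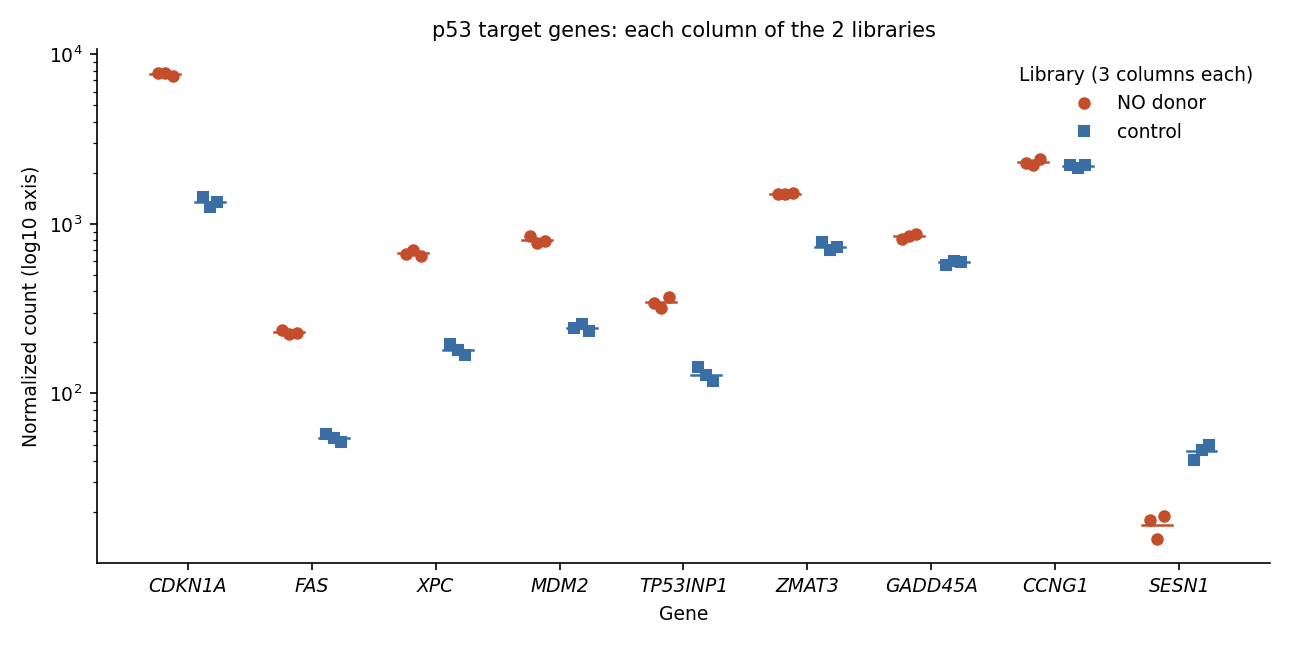
Normalized count (log10 axis) of each of the 9 genes in the 3 columns of the NO donor library (circles, left of each pair) and of the control library (squares, right); the short lines are the values of the summed columns. The columns of a library lie close together, the NO donor columns are above the control columns in 7 genes, overlap them in CCNG1 and are below them in SESN1.

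The cell cycle inhibitor CDKN1A (chromosome 7, 32354776 to 32363771) had the highest ratio of the 9. Its normalized counts were 7718, 7782 and 7442 in the NO donor columns, against 1442, 1250.1 and 1346 in the control columns. The groups of columns were far apart, and the log2 ratio was 2.51 (2.46 to 2.56), with a range of 2.37 to 2.64 over the 9 pairings of a NO donor and a control column. CDKN1A took 0.132% of all counts in NO donor cells and 0.0153% in control cells. Of the measured genes 2.77% had a ratio as high. Its columns varied 5.22 times as much as Poisson counts in NO donor cells and 5.37 times in control cells, so its counting interval is too narrow; the pairings give the wider range.

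GADD45A (chromosome 6, 144940702 to 144944089), a small stress protein that binds PCNA and p21, stood only just past the size rule. It had 818, 851 and 874 in the NO donor columns and 570.4, 604 and 599 in the control columns. The columns did not overlap, but the log2 ratio was 0.52 (0.43 to 0.61) and 28.8% of measured genes had one as high. Without NO donor column 3 it was 0.495 and without control column 1 it was 0.496, short of the rule, and 6 of the 9 genes were then higher. CCNG1 (chromosome 16, 60349255 to 60356737), cyclin G1, which recruits a phosphatase to MDM2, had 2273, 2226 and 2402 in the NO donor columns and 2206, 2143 and 2233 in the control columns. These columns overlapped, and its log2 ratio of 0.07 (0.02 to 0.12) lay near the median of all genes. The NO donor columns of CCNG1 varied 4.38 times as much as Poisson counts, so this interval is too narrow. Its pairings of columns ranged from −0.004 to 0.16. The NO donor columns of MDM2 and TP53INP1 varied 2.61 and 2.47 times as much, and their control columns 0.47 and 1.09 times. With 3 columns per library these values do not settle it, and their intervals may also be too narrow. Total count scaling put CCNG1 at 0.66, again near the shifted median of 0.60.

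MDM2 (chromosome 5, 33105717 to 33137602), the ligase that marks p53 for destruction and is itself a p53 target, had 847, 768 and 788 in the NO donor columns and 243, 255 and 232 in the control columns. Every NO donor column lay well above every control column, with a log2 ratio of 1.72 (1.59 to 1.85). Its relative MDM4, which also binds and restrains p53, had a log2 ratio of 0.80 (0.65 to 0.97), with 312 in NO donor cells and 179 in control cells.

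Both genes tied to cell death were higher. FAS (chromosome 14, 100927305 to 100954781), the death receptor for FAS ligand, had 235, 224 and 228 in the NO donor columns and 57.8, 54.7 and 51.9 in the control columns. The columns of each library nearly coincided, and the log2 ratio was 2.07 (1.81 to 2.34). ACTA2, smooth muscle actin, lies 40572 bases from FAS on the opposite strand and went the other way, at 263 in NO donor cells and 57046 in control cells. TP53INP1 (chromosome 4, 41747654 to 41766688), a nuclear and autophagy protein that aids p53, had 344, 319.7 and 372 in the NO donor columns and 144, 129 and 118 in the control columns. Its log2 ratio was 1.42 (1.24 to 1.60), with a wider range of 1.15 to 1.66 over the pairings of columns.

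XPC (chromosome 13, 70348841 to 70397194), which finds distorted DNA for nucleotide excision repair, had 666, 699 and 648 in the NO donor columns and 195, 181 and 169.6 in the control columns. Every NO donor column was more than 3 times every control column, with a log2 ratio of 1.89 (1.75 to 2.04). The gene overlaps LSM3 and TMEM43 on the opposite strand, and no source used here says whether the counting used strand, so its value is uncertain to that extent. LSM3 had a log2 ratio of −0.52, which turned to 0.07 under total count scaling, and TMEM43 had −0.71, which became −0.11.

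ZMAT3 (chromosome 13, 117113272 to 117147639), a zinc finger protein that binds RNA and affects splicing, had 1492, 1494 and 1522 in the NO donor columns and 779, 702 and 727 in the control columns. The log2 ratio was 1.03 (0.96 to 1.11), and 13.7% of measured genes had one as high.

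SESN1 (chromosome 1, 75056731 to 75170374), a sestrin that restrains the growth kinase mTORC1 and takes part in antioxidant defence, was the only one of the 9 that was lower. It had 17.9, 13.8 and 18.9 in the NO donor columns and 40.4, 46.2 and 49.7 in the control columns. The columns did not overlap, and the log2 ratio was −1.44 (−1.91 to −0.98), or −0.84 under total count scaling. It was also the sparsest of the 9, with 62 counts in NO donor cells and 114 in control cells, and the only one with a mean below the median of measured genes, 91.7. Its span overlaps ARMC2 on the opposite strand, which had a log2 ratio of 0.10 (−0.23 to 0.43). A pair of uncharacterised loci inside the span were lower like SESN1. LOC106508918, a long non-coding RNA on the same strand, had −0.91 (−1.25 to −0.57), from 129 counts in NO donor cells and 164 in control cells. LOC102163847, on the opposite strand, had −3.37 (−6.55 to −1.25), from 2 counts in NO donor cells and 14 in control cells. How reads in the overlaps were assigned is not given, so the value of SESN1 is uncertain to that extent.

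In order of ratio the 9 genes ran CDKN1A, FAS, XPC, MDM2, TP53INP1, ZMAT3, GADD45A, CCNG1 and SESN1. The counting intervals of the neighbours FAS and XPC, XPC and MDM2, and MDM2 and TP53INP1 overlapped, so these steps of the order are not resolved even by counting error. The other neighbours had intervals and pairing ranges that did not overlap.

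**Figure D2:**
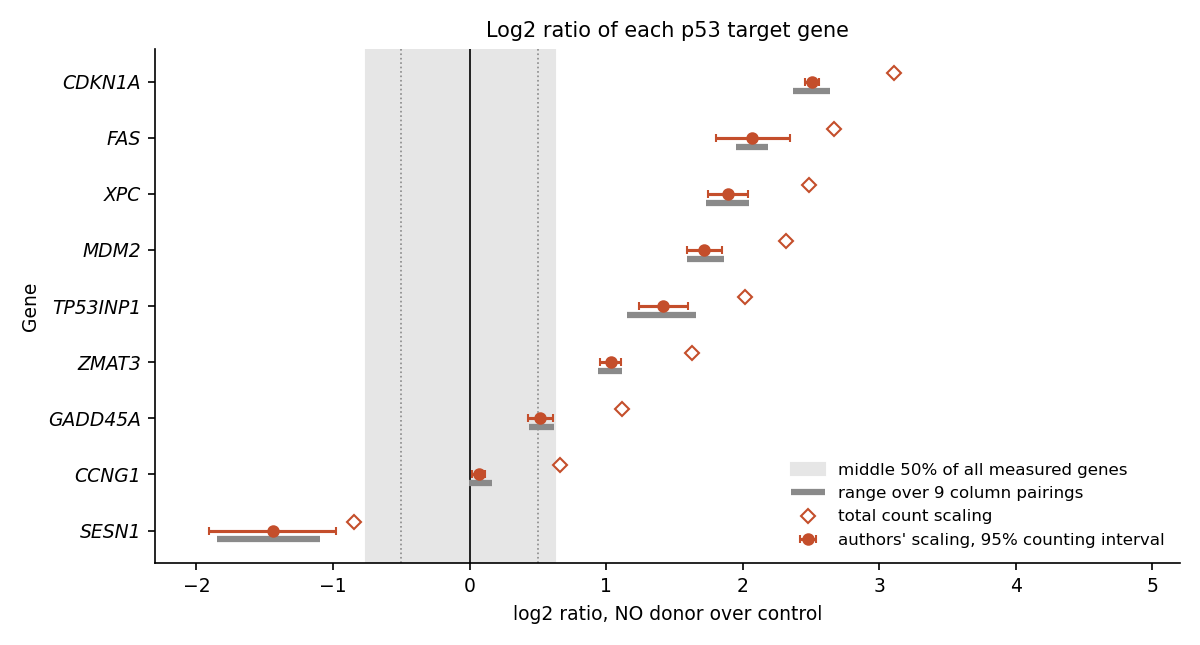
Log2 ratio of NO donor over control for each gene at the authors' scaling (filled circles, with 95% counting intervals), its range over the 9 column pairings (grey bars) and its value under total count scaling (open diamonds); the grey band is the middle 50% of all measured genes, −0.76 to 0.63, and dotted lines mark the 0.5 size rule. CDKN1A to ZMAT3 lie above the band, GADD45A and CCNG1 inside it and SESN1 below it.

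The genes nearest to CDKN1A in their 6 column values, by Euclidean distance of centred log2 values among named genes with a mean at or above 91.7, were BTG1, SULF1, PPP1R10, BRD2 and BIRC3, at distances of 0.138 to 0.214 log2 units. BTG1, an anti-proliferative protein and itself a p53 target, had 7298 in NO donor cells and 1264 in control cells, a log2 ratio of 2.53. With 1 library per group this likeness amounts to a shared ratio and to the small spread of columns.

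Family members of the 9 genes did not all follow them. CDKN1B, the related inhibitor p27, was lower, with 159 in NO donor cells and 329 in control cells and a log2 ratio of −1.04 (−1.20 to −0.89), or −0.45 under total count scaling, which misses the size rule. CDKN1C, p57, stood at 24.2 in NO donor cells and 24.1 in control cells. The INK4 inhibitors of CDK4 and CDK6 were lower in all 3 measured genes, beside 32.0% of all measured genes, with a median log2 ratio of −1.19. CDKN2C, p18, had 35.9 in NO donor cells and 419 in control cells, 11.7-fold lower. Under total count scaling 2 of the 3 were lower, beside 18.6% of all measured genes. CDKN1A was thus the 1 gene called higher among the 6 measured CDK inhibitors at the authors' scaling, and under total count scaling CDKN1C also passed the rule, at 0.60.

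SESN3 was lower like SESN1, with 68.5 in NO donor cells and 168 in control cells and a log2 ratio of −1.29 (−1.52 to −1.06). SESN2, a stress-induced sestrin, had a log2 ratio of −0.17 (−0.41 to 0.06), which became 0.42 under total count scaling. GADD45B and GADD45G, stress proteins like GADD45A, were both higher, with log2 ratios of 1.28 (1.11 to 1.45) and 1.01 (0.77 to 1.26) and intervals above that of GADD45A. TP53INP2, an autophagy protein, was higher at 1.79 (1.58 to 2.002), near TP53INP1. CCNG2, cyclin G2, had −0.09 (−0.33 to 0.15), close to CCNG1, and 0.50 under total count scaling. Among the partners, CFLAR, an inhibitor of caspase 8 below death receptors, was higher at 1.76, with 709.8 in NO donor cells and 209 in control cells. Of 19 measured paralogs and partners 9 were higher and 2 lower, or 47.4% and 10.5% beside 29.5% and 32.0% of all measured genes; the median was 0.45.

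**Figure D3:**
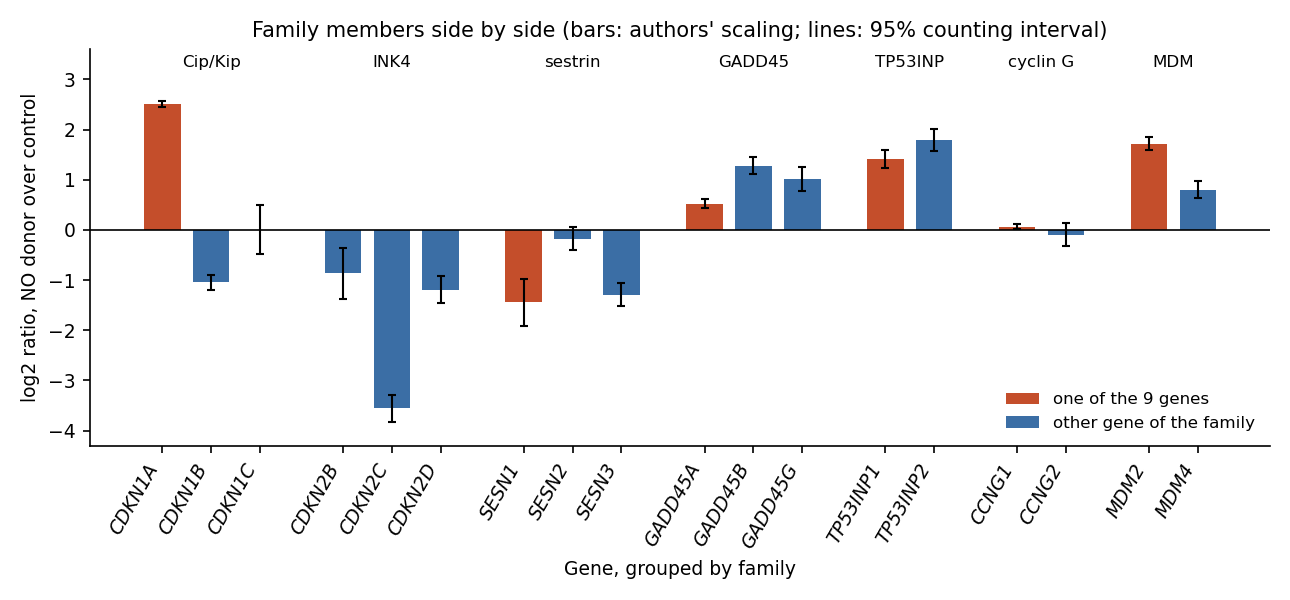
Log2 ratio of NO donor over control at the authors' scaling (bars, from 0) with 95% counting intervals (lines), for 6 of the 9 genes and for the other measured genes of their families, with the INK4 inhibitors beside. CDKN1A stands above 0 while CDKN1B and the 3 INK4 genes stand below it, and the 3 GADD45 genes and both TP53INP genes are above 0.

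A wider list of 124 p53 targets known from human studies, without the 9, had 103 measured genes. Of these 46 were higher and 24 lower, and the median log2 ratio was 0.35, against 0.00 over all measured genes. As shares this is 44.7% higher and 23.3% lower, beside the 29.5% and 32.0% of all measured genes. Scaled to total counts, 71 were higher and 13 lower, where 53.9% of all measured genes were higher and 18.6% lower. The roles differed in their counts, and no difference between roles was tested.

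Targets listed under cell cycle arrest had 7 of 8 measured genes higher (87.5%, beside 29.5% of all measured genes), with a median of 1.24. Not every gene on this list stops the cycle. Beside BTG1 it includes SERTAD1, which can raise CDK4 activity, at 2002 in NO donor cells and 530.5 in control cells. PLK3, a stress kinase, had 267 in NO donor cells and 92.7 in control cells. The lower one, named after its value was seen, was E2F7, a repressor of E2F genes, at a log2 ratio of −4.02 (−6.37 to −2.35) from 3 counts in NO donor cells and 33 in control cells. Targets of cell death had 4 of 15 higher and 5 lower, or 26.7% and 33.3%, near the 29.5% and 32.0% of all measured genes. Their median was 0.29. AEN, an apoptosis nuclease, and PHLDA3, an inhibitor of AKT, had log2 ratios of 1.59 and 1.14, whereas TNFAIP8, SIVA1 and PERP had −2.40, −1.67 and −1.09. Under total count scaling PERP had −0.49, short of the rule.

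DNA repair targets had 4 of 10 higher and 1 lower, or 40.0% and 10.0% beside 29.5% and 32.0% of all measured genes. POLK, a translesion polymerase, had a log2 ratio of 0.98, RRM2B, the p53-inducible subunit of ribonucleotide reductase, 0.86, and ASCC3, a helicase, 0.80, while PCNA had −0.47, short of the rule, or 0.12 under total count scaling. The lower one, named after its value was seen, was DDB2, a sensor of ultraviolet damage, at −1.31 (−1.59 to −1.03), or −0.72 under total count scaling. Leaving out NO donor column 1, NO donor column 3 or control column 2 gave 2 lower genes in this role, and leaving out control column 1 gave 3. Targets of metabolism, redox balance and autophagy had 9 of 21 higher and 5 lower, or 42.9% and 23.8% beside the same 29.5% and 32.0%. ULK1, an autophagy kinase, had 0.99 and GPX1, a glutathione peroxidase, 0.79. In the same group CMBL, a hydrolase, had −1.23 (−1.39 to −1.07), or −0.63 under total count scaling, and DDIT4, an inhibitor of mTORC1, had −0.60, which became 0.00. Of 3 measured targets that act back on p53, RCHY1, a ubiquitin ligase of p53, had 0.57 and PPM1D, a phosphatase that removes p53 activating marks, 0.28 (−0.02 to 0.60). The third, TP73, a p53 relative named after its value was seen, was lower at −1.76 (−2.60 to −0.98), from 20 counts in NO donor cells and 46 in control cells, or −1.17 under total count scaling. RCHY1 was the 1 gene of the 3 called higher, or 33.3% beside 29.5% of all measured genes. Without NO donor column 3 none was, and without control column 3 there were 2.

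Secreted, surface and other targets had 21 of 46 higher and 11 lower, or 45.7% and 23.9% beside 29.5% and 32.0% of all measured genes. GDF15, a stress cytokine, was 14.2-fold higher, at 883 in NO donor cells and 62.2 in control cells. LIF, leukaemia inhibitory factor, was 13.4-fold higher and ATF3, a stress transcription factor, 8.62-fold higher.

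p53 is controlled mainly at the protein level, which was not measured. Of 26 measured genes on the list of the p53 regulatory core 8 were higher and 5 lower, or 30.8% and 19.2% beside 29.5% and 32.0% of all measured genes, so the share that was higher lay near the background; the median was 0.16. TP53RK, a kinase for p53, was higher at 1.75. The 3 ribosomal proteins of the list, RPL5, RPL11 and RPL23, which bind MDM2 when ribosome assembly is disturbed, had log2 ratios of −2.12, −2.28 and −1.78, and reads shared with near-identical copies make the single values of ribosomal genes uncertain.

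The binding partners of p21 were lower or near the control level. Of 12 measured cyclins, CDKs and PCNA none was higher and 7 were lower, with a median of −0.78. Among all measured genes 29.5% were higher and 32.0% lower, against 58.3% lower here. Scaled to total counts, 4 were higher and 5 lower, where 53.9% of all measured genes were higher and 18.6% lower. CDK4, the kinase of early G1, had 353 in NO donor cells and 717 in control cells. Its log2 ratio of −1.02 became −0.43 under total count scaling, which misses the size rule. CCND3, a D-type cyclin, had 454 in NO donor cells and 1008 in control cells. CDK6 had −0.53, which became 0.07 under total count scaling. CCNB1, the mitotic cyclin, had 5.17 in NO donor cells and 194 in control cells, from 19 and 483 counts.

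Genes known to be repressed through p53, p21 and DREAM were lower in 28 of 30 and higher in none, with a median log2 ratio of −4.72. The share lower was 93.3%, beside 32.0% of all measured genes. CENPF, which acts at kinetochores, had 15 counts in NO donor cells and 1027 in control cells, a log2 ratio of −6.66 (−7.50 to −5.93). The values of the other named genes were −6.55 for TOP2A and −5.98 for KIF23. MAD2L1 and CDC25A, named after their values were seen, were the 2 not lower, at −0.21 and 0.32. These genes mark dividing cells, so fewer dividing cells and less RNA of these genes per cell cannot be told apart.

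**Figure D4:**
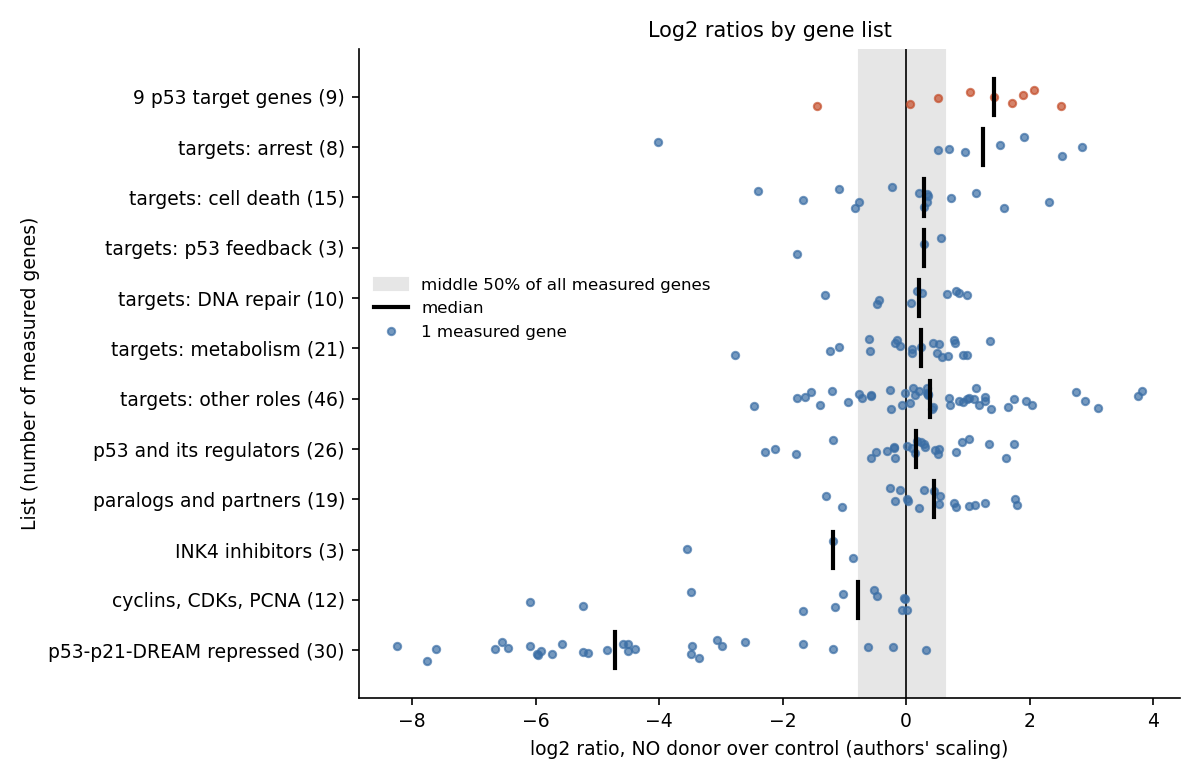
Log2 ratio of NO donor over control at the authors' scaling for every measured gene of each list (points, spread vertically at random within a list) with the list's median (black bar); the grey band is the middle 50% of all measured genes. The 9 genes and the arrest targets have medians above the band, the other target roles have medians inside it, and the repressed cell cycle genes lie mostly far below it.

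Markers of cell types also differed between the libraries. Of 12 markers of valve interstitial cells 11 were lower (91.7%, beside 32.0% of all measured genes), with a median of −2.84. They summed to 49004 in NO donor cells and 233506 in control cells. PDGFRB, named after its value was seen, was the exception at 0.04. The 6 endothelial markers with a row summed to 438 in NO donor cells and 801 in control cells, with 1 of 4 measured ones higher and 3 lower (median −1.51). The 6 leukocyte markers with a row summed to 174 in NO donor cells and 173 in control cells, and most of both sums was CD14, at 151 in NO donor cells and 160.1 in control cells. Among the 5 measured leukocyte markers 3 were higher and 1 was lower. Beside these endothelial and leukocyte counts, 29.5% of all measured genes were higher and 32.0% were lower. AIF1 had 35 counts in NO donor cells and 1 in control cells, and CD68 24 in NO donor cells and 4 in control cells. TYROBP had 4 in NO donor cells and 19 in control cells. The other 6 endothelial and 9 leukocyte markers, and all epithelial, erythroid and mitochondrial ones, were not analysed here. The part of cell makeup in the ratios of the 9 genes was not tested.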

How the data were processed

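Droplet single-cell libraries were made on the 10x Chromium system, per the labels' protocols. Cell Ranger, Seurat 3.0 and DESeq2 are the tools, and Sscrofa11.1 the build, in the submitters' processing notes, which give no roles. How cells were filtered and doublets treated is not given in the sources used here, and sums over cells do not allow doublets to be removed. The normalized count columns and their mean are a signal that, by the file headers and the numbers themselves, the authors divided by 1 factor for each column; 100% of values in each of 6 columns were whole multiples of 1 step within 0.01, so counts were recovered. The deposited log2 fold change and its error are the authors' DESeq2 estimates, the Wald score is their quotient, and each deposited p-value, raw or adjusted, rests on the columns; per the file headers all come from DESeq2. No p-value is printed, and no count test was run, since each group has 1 library.

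Counts of a library were summed over columns and divided by the summed size factors, with no pseudocount and a floor of 3 counts for a library at 0. Intervals are exact Clopper-Pearson intervals conditional on the summed count, at 95%. Measured genes are the 13943 to which the authors gave an adjusted p-value; 861 rows have none. Lists of other targets, regulators, relatives and cell cycle genes were compiled from general knowledge; the 9 genes and these lists were chosen with earlier results of these data known. Named genes were the 9 genes, up to 4 per list (3 each way per target role) with the largest absolute log2 ratio at a mean of at least 91.7, MDM4, PPM1D and paralogs, and the 5 genes nearest to CDKN1A; some genes that the rule names are not reported here. Symbols were matched exactly to RefSeq genes of Sscrofa11.1 (14775 rows matched), and sequences were read from that genome with pysam 0.24.0; coordinates are 1-based. The scan of 10000-base windows was added after the data were seen. Ratios were checked on simulated Poisson counts. That check does not cover columns that vary more than Poisson counts, as those of CDKN1A did. Python 3.11.15, scipy 1.17.1 and edgeR 4.0.16 were used. Alternatives were other scalings, estimates, size rules and filters, and leaving out each column.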

Additional observations from a re-analysis of the deposited data

How the results depend on the processing

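The 580 values under an alternative were ratios of the 9 genes, list medians and counts. No such ratio or median that passed the size rule turned its direction, and a count has no direction to turn. Other genes were not followed singly in this check. CDK6, called lower at −0.53, had 0.07 under total count scaling, and LSM3 changed sign in the same way. Under TMM scaling by edgeR, the authors' deposited log2 fold change and columns weighted alike, each count stayed within 1.5 times. There each list median stayed within 0.1 log2 units and each of the 9 ratios within its counting interval. The counts that changed were 9 regulators higher and 6 cyclins, CDKs and PCNA lower under TMM, and 45 other targets higher, 8 of them in metabolism, under the others; the log2 fold changes of the 9 genes in the authors' deposited table differed from the ratios given by at most 0.0065. Low counts limit SESN1, CDKN1C, TP73, E2F7 and many cell cycle genes. No paired analysis was possible because each group has 1 library and no label links columns of the 2 libraries.

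Total count scaling, which adds 0.60 by construction, gave log2 ratios of 3.11 for CDKN1A, 2.67 for FAS, 2.49 for XPC, 2.32 for MDM2, 2.01 for TP53INP1, 1.63 for ZMAT3, 1.11 for GADD45A, 0.66 for CCNG1 and −0.84 for SESN1, and a median of 2.01 for the 9 genes. Under it the other p53 targets had 71 of 103 higher and 13 lower (median 0.94), and the regulators 16 of 26 higher (0.76). The paralogs and partners had 15 of 19 higher and 1 lower (1.05). The cyclins, CDKs and PCNA had 4 of 12 higher (−0.18), the repressed genes 1 of 30 (−4.12), and the INK4 median was −0.59. Among all measured genes 53.9% were then higher and 18.6% lower. At a size rule of 1 log2 unit the other targets had 24 of 103 higher, the regulators 4 of 26 and the paralogs and partners 5 of 19. By that rule 14.5% of all measured genes were higher. The other targets had 15 lower by it, and the share of all measured genes lower by it was not computed. Among genes with a mean of at least 91.7 the other targets had 12 of 68 lower (median 0.51) and the regulators 3 of 17. The INK4 genes had 1 of 1 lower (−3.54), the cyclins, CDKs and PCNA 4 of 7 (−0.53) and the repressed genes 9 of 10. Of all measured genes with such a mean 28.0% were lower, and fewer genes were counted.

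Leaving out each of the 6 columns in turn gave 6 to 7 of the 9 genes higher; CDKN1A ranged from 2.46 to 2.56, FAS from 2.03 to 2.11, GADD45A from 0.50 to 0.54, CCNG1 from 0.04 to 0.09 and SESN1 from −1.53 to −1.31. The INK4 median ranged from −1.29 to −1.10 and that of the repressed genes from −5.07 to −4.59. For the p53 site, an alternative chosen after seeing the data, at most 1 mismatch left 3 of the 9 genes, against 0.685% of windows, and at most 3 gave 6, against 11.4%.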
